A study of Mus musculus with 8 samples.

Results

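The genes of cholesterol biosynthesis and its transcription factor SREBP2 were examined in the jejunal mucosa of mice lacking the free fatty acid receptor FFA2 in adipocytes. The list was written from pathway knowledge by gene symbol, with earlier results of these data known. It held 27 genes of the 56980 gene identifiers counted, made up of 20 enzymes, 4 genes that control SREBP2 and 3 further targets of the pathway. All 27 were found by symbol and all 27 passed the filter on low counts.

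RNA sequencing was performed on jejunal mucosal scrapings from 4 FFA2 fl/fl mice (floxed controls) and 4 littermates of the genotype Adipoq‐F2‐KO, which carry the same floxed gene and an adiponectin-driven Cre recombinase. All mice were male, co-housed from birth on normal chow, moved at 12 weeks of age to a Western diet with 10% fructooligosaccharides (WD + FOS) under thermoneutral housing, and sampled after 2 weeks. The study asked how loss of FFA2 in fat is reflected in the intestine, and the comparison below asks how the sterol synthesis genes differed between the genotypes. The Cre is driven in adipocytes, so that by design the mucosal cells themselves keep the receptor gene. No group with Cre but without the floxed gene, or on another diet, was among the libraries analysed here.

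Cells make cholesterol from acetyl-CoA through mevalonate, isoprenoid diphosphates, squalene and lanosterol. When sterol in the endoplasmic reticulum runs low, SCAP carries SREBP2 to the Golgi, where it is cut to release a transcription factor that turns on most genes of the pathway, and when sterol is plentiful the INSIG proteins hold the complex back. The small intestine both absorbs dietary cholesterol and synthesizes its own, and enterocytes pack it into chylomicrons together with dietary fat.

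Total counts were 15204995 to 21712776 in 5 libraries and 6007654 to 6541595 in the other 3 (control 3, Adipoq‐F2‐KO 3 and 4). The mitochondrially encoded share was 11.6 to 12.2% in those 3 and 4.37 to 10.1% in the deeper 5. The 15 villus enterocyte markers were present in every library, with a summed normalized count of 701367 to 772216 among controls and 707977 to 804820 among Adipoq‐F2‐KO. Markers of other tissues varied widely among the scrapings. The 10 smooth muscle markers summed to between 287 and 23045 in controls, the latter in control 3, and to between 535 and 8037 in Adipoq‐F2‐KO. The 7 adipose markers, of which Adipoq had 0 to 59 raw counts, summed to 209 to 583 in the 3 shallow libraries and to 10.1 to 19.0 in the deeper 5. Control 3 was the lowest of the 8 libraries at 10 of the 27 members, and Adipoq‐F2‐KO 2 was the highest at 14, so counts are also given without these 2 libraries.

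In Adipoq‐F2‐KO the sterol transfer gene Stard4 rose, and it was the 1 member to pass the adjusted test (0.39 ± 0.09, log2 fold change and standard error, adjusted p = 0.0369 in DESeq2). The call was made in 6 of 18 alternatives, all of them DESeq2 fits, and was lost with edgeR (adjusted p = 0.999) and limma-voom (0.974). On a single set of simulated counts DESeq2 made more false calls than its adjusted threshold allows, which edgeR and limma did not. The spreads of that set were estimated with edgeR and its planted changes were larger than that of Stard4, so it cannot settle this call. Across all 15986 genes tested, 0.0375% passed in either direction and 0.0313% as higher. At an unadjusted p below 0.05 there were 3 members, Stard4, the squalene synthase gene Fdft1 and the HMG-CoA synthase gene Hmgcs1, all higher, beside 3.03% of all genes in either direction and 1.65% as higher. These 3 were also the members whose genotypes did not overlap in any library (2.12% of all genes, 1.1% with Adipoq‐F2‐KO above and 1.02% below). None of the 27 was lower at an unadjusted p below 0.05 (1.38% of all genes). In bulk tissue, more RNA per cell and more cells of the type that holds it cannot be told apart.

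Of the 27 members, 19 had a log2 fold change above 0 (48.5% of all genes did) and 8 below, with a median of 0.10 against −0.01 over all genes. The changes ran from −0.25 for Tm7sf2 to 0.65 for Fdft1. With the 3 members at an unadjusted p below 0.05 set aside, 16 of the remaining 24 were above 0 with a median of 0.09. The count above 0 depended on the scaling. When libraries were scaled to the 12 epithelial markers alone, 14 of 27 members were above 0 (30% of all genes), their median was 0.0026, and that of all genes −0.10. Without Adipoq‐F2‐KO 2, 17 members were above 0 (48.7% of all genes), and without that library and control 3 there were 15 (50.8% of all genes), with a median of 0.03.

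**Figure D1:**
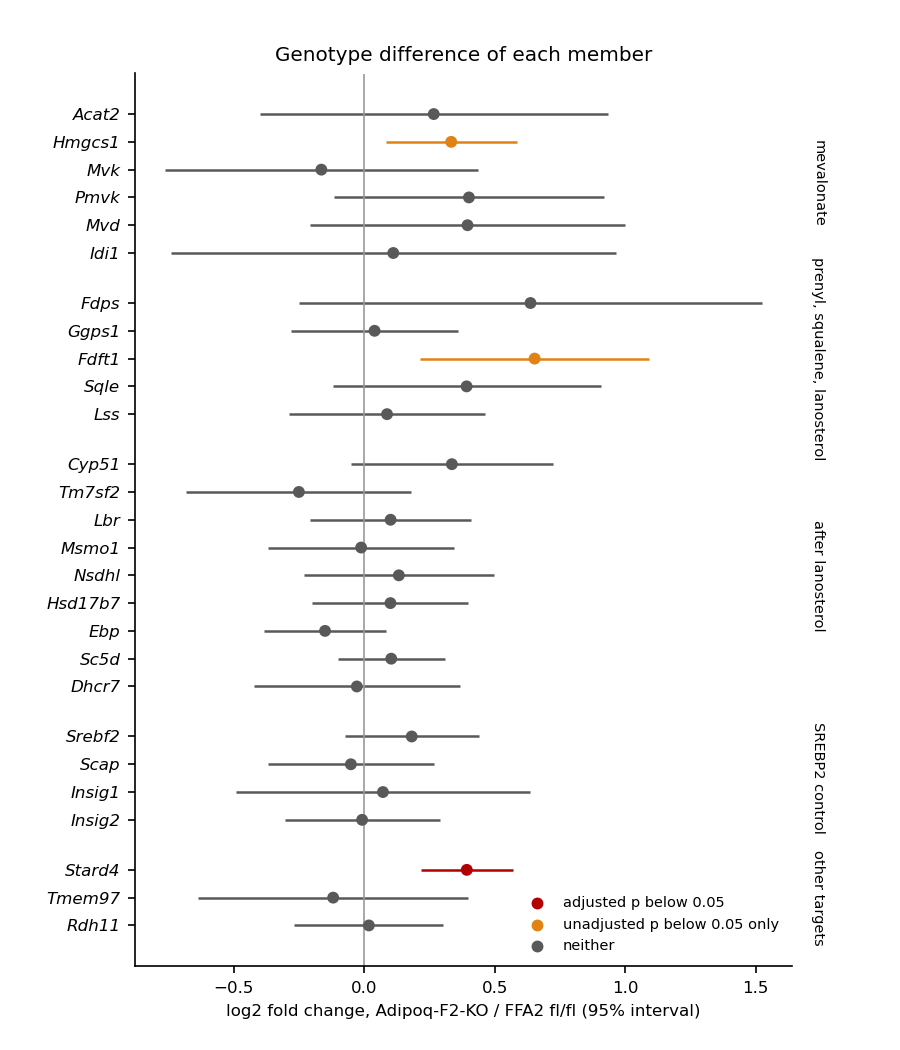
Log2 fold change of each of the 27 members (Adipoq‐F2‐KO over FFA2 fl/fl, horizontal axis), grouped by role, with bars for the 95% interval of the DESeq2 fit. The interval lies above 0 for Stard4, Fdft1 and Hmgcs1 and spans 0 for the other 24.

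The mevalonate enzymes build isopentenyl diphosphate, the unit from which all isoprenoids are made. Of the 6, 5 had a log2 fold change above 0 (4 of them between 0.27 and 0.40), the median was 0.30 (0.17 without Adipoq‐F2‐KO 2), and 1 had an unadjusted p below 0.05. Hmgcs1, the cytosolic synthase that makes HMG-CoA, had normalized counts (counts divided by the size factor of the library) of 619.1, 744.2, 857.4 and 743.7 for controls 1 to 4 and of 873.9, 1040.3, 874.9 and 921.2 in Adipoq‐F2‐KO 1 to 4. The lowest Adipoq‐F2‐KO library lay just above control 3, the highest control. The means were 741 ± 97.3 and 928 ± 78.3 (SD, n = 4 each). The log2 fold change of 0.33 (standard error 0.13) had an unadjusted p of 0.00907 and failed once adjusted over all genes (DESeq2 adjusted p = 0.9998). It ranged from 0.25 to 0.45 over 18 alternatives, its unadjusted p was no longer below 0.05 under epithelial scaling or without Adipoq‐F2‐KO 2, and under epithelial scaling Stard4 alone of the members kept its genotypes apart (1.76% of all genes).

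Pmvk and Mvd, whose enzymes phosphorylate phosphomevalonate and decarboxylate its product, both had log2 fold changes of 0.40, with intervals of −0.12 to 0.92 and −0.21 to 1.00. Pmvk was at 58.8, 58.5, 77.4 and 50.3 among controls and at 93.1, 99.2, 56.1 and 60.2 among Adipoq‐F2‐KO. The 2 deep Adipoq‐F2‐KO libraries lay above every control and the 2 shallow ones within their range. Mvd was at 38.2, 29.0, 69.0 and 36.4 among controls and at 48.2, 62.0, 48.1 and 56.4 among Adipoq‐F2‐KO, so that control 3 alone kept the genotypes from separating. Without it 6 members did not overlap (9.66% of all genes), Mvd among them. Acat2, which joins acetyl-CoA units in the first step, had a log2 fold change of 0.27 (standard error 0.34, and 0.09 to 0.42 on leaving out 1 library). Idi1, which isomerizes isopentenyl diphosphate, was at 0.11 (standard error 0.43). Idi1 was spread over 8.4 to 37.0 among controls and 15.04 to 40.3 among Adipoq‐F2‐KO, and its log2 fold change turned to −0.11 without control 3 and −0.06 without Adipoq‐F2‐KO 1. Mvk, the kinase that phosphorylates mevalonate, was the group's member below 0 (−0.16, standard error 0.31). Its counts in Adipoq‐F2‐KO were 43.4, 85.6, 48.1 and 50.8, against 41.8 to 78.9 in controls, with library 2 the highest of all 8.

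The promoters of 3 members hold the sequence CACNCCAC, a core of the sterol regulatory element bound by SREBP, on either strand, and are shown as the stretch of 250 bases before the annotated start site. They come from a table of RefSeq start sites (assembly GRCm38.p6) in which 23 of the 27 members were matched, so that the promoters of Fdft1, Fdps, Sqle and Stard4 were not analysed here. Insig1 lies on the + strand at chr5:28071162-28071411, Hmgcs1 on the + strand at chr13:119690101-119690350, and Acat2 on the − strand at chr17:12960726-12960975. Each is printed 5′ to 3′ on the strand of its gene, with CACNCCAC and CCAAT (the box bound by NF-Y) in capitals in either orientation.
Hmgcs1: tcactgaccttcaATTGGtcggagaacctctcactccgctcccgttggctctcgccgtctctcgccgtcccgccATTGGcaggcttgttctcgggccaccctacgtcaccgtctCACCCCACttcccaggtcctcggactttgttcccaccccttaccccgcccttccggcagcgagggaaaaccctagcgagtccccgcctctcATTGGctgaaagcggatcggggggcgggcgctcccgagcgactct
Insig1: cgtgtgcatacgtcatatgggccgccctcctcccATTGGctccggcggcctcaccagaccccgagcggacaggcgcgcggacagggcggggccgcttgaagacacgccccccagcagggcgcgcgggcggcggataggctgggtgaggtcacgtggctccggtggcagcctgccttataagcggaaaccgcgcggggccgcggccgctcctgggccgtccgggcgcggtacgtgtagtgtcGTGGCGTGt
Acat2: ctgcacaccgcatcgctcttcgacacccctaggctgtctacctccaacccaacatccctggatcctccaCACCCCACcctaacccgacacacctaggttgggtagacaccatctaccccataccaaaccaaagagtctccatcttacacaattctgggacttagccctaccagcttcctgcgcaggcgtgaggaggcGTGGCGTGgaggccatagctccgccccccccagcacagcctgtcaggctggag
The core begins 136 bases before the start site in Hmgcs1, 9 bases before it in Insig1, and 181 and 53 bases before it in Acat2. In windows from 250 bases before to 50 after the start site, searched on both strands, CACNCCAC was found in 3 of 23 members (13.04%) and in 7.12% of all 27025 genes. The longer TCACNCCAC, which contains it, was found in Hmgcs1 alone of the members (4.35% against 1.44%). CCAAT was in 21 of 23 members (91.3% against 41.1% of all genes) and the GC box GGGCGG, which Sp1 binds, in 20 (87.0% against 38.2%). The E-box CACGTG was in 6 members (26.1% against 8.09%). All members passed the filter on low counts, whereas the 27025 genes were not limited to those that did. Whether the shares differ from those of other expressed genes was not tested. Such matches describe the letters of these windows and no binding was measured.

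The enzymes from isopentenyl diphosphate to lanosterol were grouped with Ggps1, whose product goes to protein prenylation. As reported this group had the highest median log2 fold change (0.39), with all 5 above 0 and 1 at an unadjusted p below 0.05. Without Adipoq‐F2‐KO 2 the median was 0.19 and 4 of 5 were above 0, and without control 3 as well it was 0.25, below the 0.30 of the mevalonate enzymes in the same 6 libraries. It was also below theirs without control 1 (0.27 against 0.28) and with at least 10 counts in all 8 libraries (0.24 against 0.33). Fdft1 makes squalene and so commits the flow to sterols. Its normalized counts were 50.3, 73.3, 66.9 and 56.5 among controls and 86.0, 107.9, 80.1 and 110.9 among Adipoq‐F2‐KO. All 4 Adipoq‐F2‐KO libraries lay above all controls, with means of 61.7 ± 10.3 and 96.2 ± 15.4 (SD, n = 4 each). The log2 fold change was 0.65 (standard error 0.22, 95% interval 0.21 to 1.09, unadjusted p = 0.00351), and it failed the adjustment (DESeq2 adjusted p = 0.966). Over 18 alternatives it stayed between 0.54 and 0.77, and the genotypes overlapped under epithelial scaling. The far more abundant cathepsin gene Ctsb overlaps Fdft1 on the opposite strand, with 46179 counts over the 8 libraries against 709 for Fdft1. The strand setting of the counting was not given in the sources used here, and Ctsb itself had a log2 fold change of 0.00039 (standard error 0.11).

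Fdps, the farnesyl diphosphate synthase, had a log2 fold change of 0.64 with a standard error of 0.45 and was at 7.3 to 15.5 normalized counts among controls and 14.01 to 21.1 among Adipoq‐F2‐KO. Control 4 was the library that overlapped. Part of Fdps cannot be told from other genes, since 23.5% of its runs of 75 bases (the read length) occur in another annotated gene. The same share was 33.9% in Acat2, 23.6% in Idi1, 21.8% in Fdft1 and 0 in Stard4.

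Sqle, the squalene epoxidase, was at 86.6, 89.1, 129.7 and 155.6 among controls and at 127.9, 203.4, 128.1 and 135.4 among Adipoq‐F2‐KO. One library stood well above the rest, and the other 3 Adipoq‐F2‐KO libraries lay within the control range. The log2 fold change was 0.39 (standard error 0.26), and 0.19 without Adipoq‐F2‐KO 2. Lss, which closes squalene epoxide to lanosterol, had a log2 fold change of 0.09 that turned to −0.07 without the same library. Ggps1, whose product goes to protein prenylation rather than to sterols, had a log2 fold change of 0.04 (interval −0.28 to 0.36). The normalized count of Fdft1 over that of Ggps1 was 0.24 to 0.3475 among controls and 0.3478 to 0.56 among Adipoq‐F2‐KO, so that the ranges met without overlap.

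**Figure D2:**
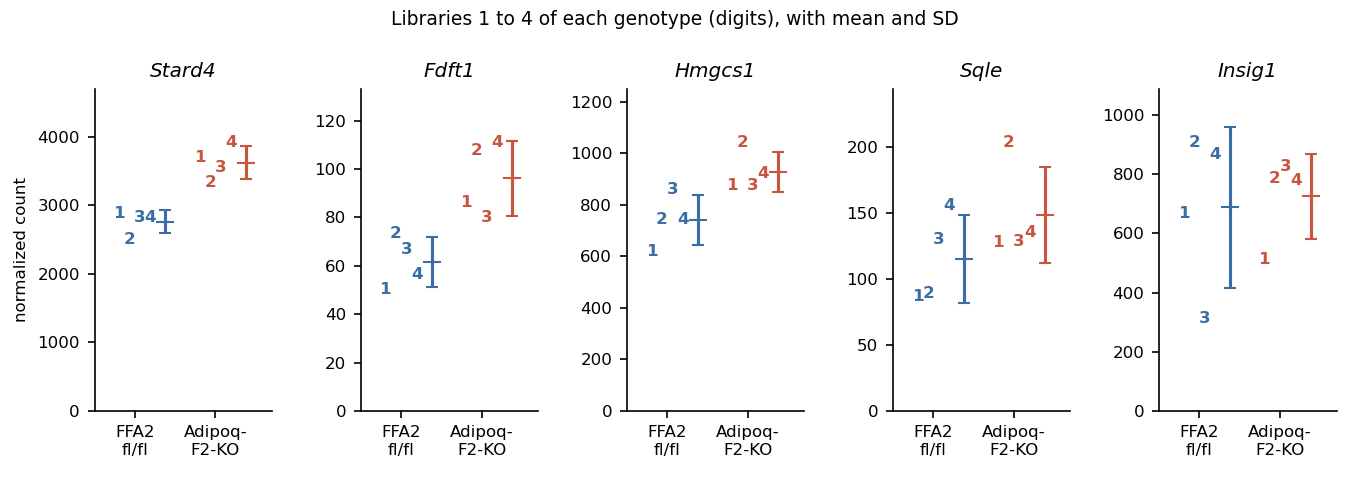
Normalized counts of Stard4, Fdft1, Hmgcs1, Sqle and Insig1 in each library, where a digit marks the library number and the bar beside it the mean and SD of the 4 libraries of that genotype. The genotypes do not overlap at the first 3 genes, while Sqle is set apart by Adipoq‐F2‐KO 2 and Insig1 is lowest in control 3.

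After lanosterol, 9 enzymes remove methyl groups and shift double bonds to reach cholesterol. Of these, 5 had a log2 fold change above 0 and 4 below, and the median was 0.10. With all 8 libraries none had an unadjusted p below 0.05 in DESeq2. Cyp51 did so without control 2, without Adipoq‐F2‐KO 3 or 4, and in the 5 deep libraries. Cyp51, the lanosterol demethylase, was the highest at 0.34 (interval −0.05 to 0.72). It was at 212.0, 261.4, 184.0 and 215.9 among controls and at 314.2, 342.2, 226.2 and 214.3 among Adipoq‐F2‐KO, where libraries 1 and 2 lay above every control and 3 and 4 within their range. Akap9 overlaps it on the opposite strand and had a log2 fold change of 0.04.

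The double bond left by that demethylation is reduced by either of a pair of enzymes, Tm7sf2 and Lbr, the latter also a lamin B receptor of the nuclear envelope. Tm7sf2 had a log2 fold change of −0.25 (interval −0.68 to 0.18) and Lbr of 0.10 (interval −0.21 to 0.41). Tm7sf2 shares exon sequence with Vps51 on its own strand. The ratio of Lbr to Tm7sf2 was 3.20 ± 1.16 and 4.01 ± 0.92 (SD, n = 4 each), with the ranges 2.46 to 4.94 and 3.05 to 5.08 overlapping.

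The C4 demethylation enzymes Msmo1, Nsdhl and Hsd17b7 had log2 fold changes of −0.01, 0.13 and 0.10, and that of Msmo1 changed sign in 7 of 18 alternatives. The sterol isomerase Ebp was at −0.15 (interval −0.39 to 0.08), with normalized counts of 405.7 to 472.1 among controls and 345.9 to 437.7 among Adipoq‐F2‐KO. The desaturase Sc5d was at 0.10 (interval −0.10 to 0.31) and the final reductase Dhcr7 at −0.03, the latter with 4 changes of sign. Sc5d varied least among the controls of all members, with a coefficient of variation of 4.41%, where the median over members was 16.7% (16.3% among Adipoq‐F2‐KO).

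The 11 enzymes grouped as up to lanosterol included Ggps1. Hmgcs1 had the highest control mean among them (741), followed by Ggps1 (222). The summed normalized count of the 11 was 31.2 to 43.8% of that of the 9 later ones in controls and 37.9 to 46.1% in Adipoq‐F2‐KO. The means of 35.7 ± 5.64% and 40.8 ± 3.77% (SD, n = 4 each) came from overlapping ranges, and control 3 had the highest value among controls. The median log2 fold change was 0.33 for the earlier enzymes and 0.10 for the later ones, 0.25 and 0.0026 under epithelial scaling, and 0.19 and 0.05 without Adipoq‐F2‐KO 2. These medians were not tested against each other.

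**Figure D3:**
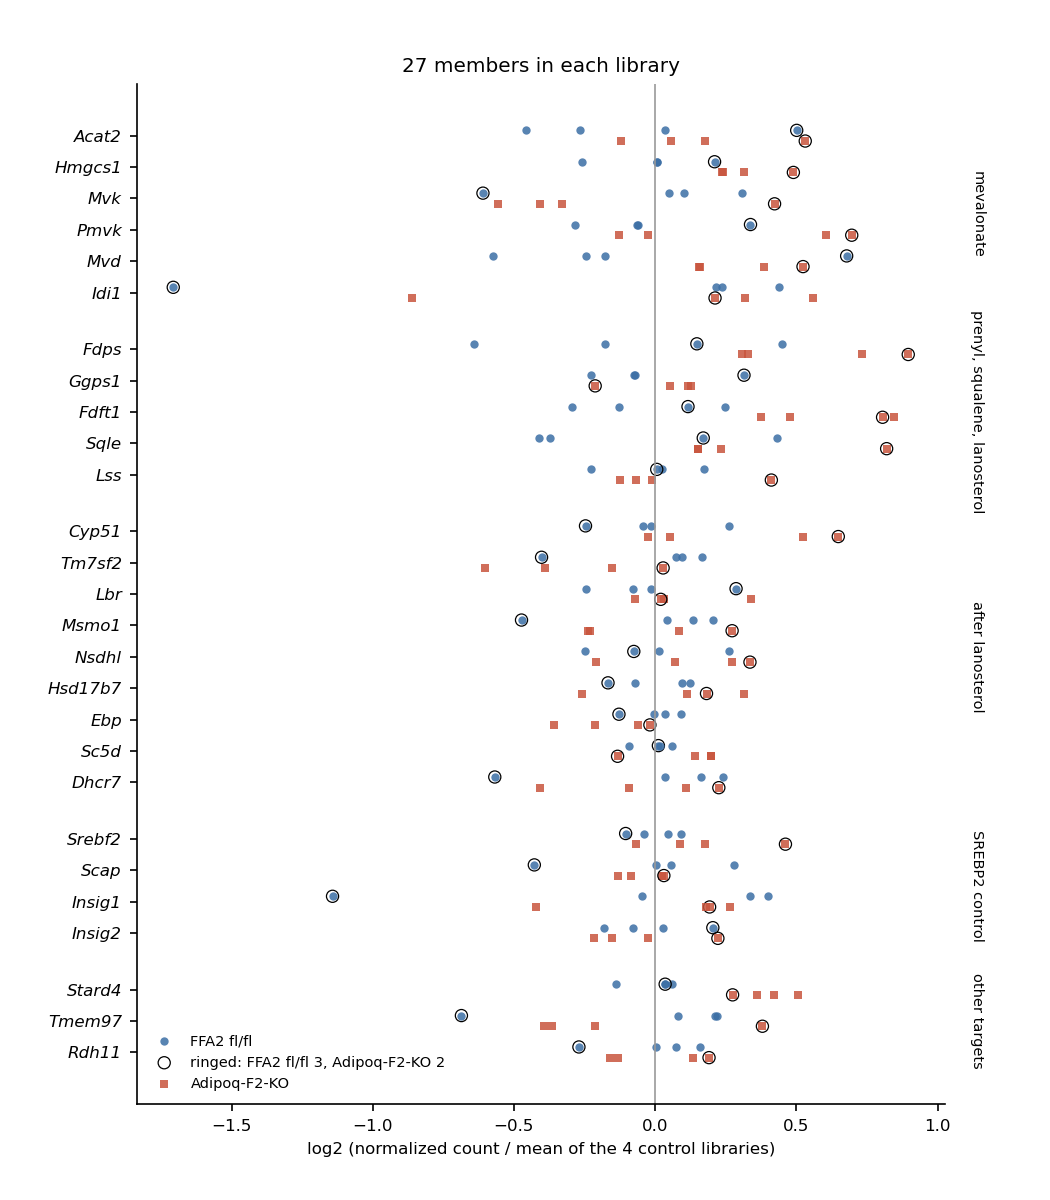
Each of the 27 members in each library, as the log2 ratio of its normalized count to the mean of the 4 control libraries (circles FFA2 fl/fl, squares Adipoq‐F2‐KO). Rings mark control 3, the lowest library at 10 members, and Adipoq‐F2‐KO 2, the highest at 14.

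Of the 4 genes that sense sterol and release SREBP2, 2 had a log2 fold change above 0 and none an unadjusted p below 0.05 with all 8 libraries. The median was 0.03, and −0.05 without control 3. Srebf2, which encodes SREBP2 and is itself one of its targets, had a log2 fold change of 0.18 (interval −0.08 to 0.44). It was at 962.0, 908.2, 867.8 and 994.5 among controls and at 1053.8, 1284.6, 890.9 and 992.7 among Adipoq‐F2‐KO, with 2 libraries above every control. Scap was at −0.05 (interval −0.37 to 0.27) and turned to 0.0031 with the smooth muscle score as a covariate and to 0.05 without control 1.

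Insig1, the sterol-induced retention protein whose gene SREBP2 strongly activates, was at 665.8, 906.6, 311.6 and 867.5 among controls and at 513.1, 786.1, 826.9 and 778.3 among Adipoq‐F2‐KO. Its log2 fold change was 0.07 (interval −0.49 to 0.63) and rested on control 3, the lowest library by far. Without it the value was −0.17, and in the 5 deep libraries −0.32. Insig2, the less sterol-responsive of the pair, was at −0.0082 (interval −0.31 to 0.29), with 6 changes of sign among the alternatives. The ratio of Insig1 to Insig2 was 2.48 ± 1.15 for the control libraries against 2.62 ± 0.68 (SD, n = 4 each).

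Among the other targets, Stard4 (ENSMUSG00000024378, chromosome 18) encodes a soluble protein that moves cholesterol between membranes. Its normalized counts were 2873.3, 2505.2, 2825.2 and 2824.0 among controls and 3692.0, 3333.7, 3543.7 and 3910.4 among Adipoq‐F2‐KO. The lowest Adipoq‐F2‐KO library was above the highest control, and the coefficient of variation was 6.14% and 6.72%. The means of 2757 ± 169 and 3620 ± 243 (SD, n = 4 each) made it 1.31-fold higher (95% interval of the log2 fold change 0.22 to 0.57). It had the 5th smallest p of all genes tested.

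The log2 fold change of Stard4 stayed between 0.31 and 0.44 over 18 alternatives, while the adjusted p passed 0.05 in 6 of them and ran from 0.00586 to 0.9999 (DESeq2, edgeR or limma). Among the fits that left out 1 library, it passed without control 3 (DESeq2 adjusted p = 0.0154) or Adipoq‐F2‐KO 2 (0.0288) and failed without control 1 (0.274), 2 (0.331) or 4 (0.336) or Adipoq‐F2‐KO 1 (0.349), 3 (0.113) or 4 (0.549). With edgeR no member passed (Stard4 0.999), although the same 3 members had an unadjusted p below 0.05 (1.63% of all genes as higher). With limma-voom there were 6, all higher (2.16% of all genes), with Pmvk, Mvd and Fdps beside these 3, and none passed the adjustment (Stard4 0.974). Relative to Sc5d, the member nearest to it in level per length, Stard4 was 1.29 to 1.65 among controls and 1.66 to 1.97 among Adipoq‐F2‐KO, a ratio that does not depend on library scaling. Stard4 made up 24.8 ± 2.05% of the normalized counts of all 27 members among controls and 28.7 ± 2.27% among Adipoq‐F2‐KO (SD, n = 4 each). The sum of the 27 members was 10504 to 11564 among controls and 12191 to 13066 among Adipoq‐F2‐KO. Without Stard4 it was 7679 to 8821 and 8647 to 9732, and the genotypes overlapped. Tmem97, a sterol-regulated protein of the endoplasmic reticulum, and Rdh11, a retinal reductase, had log2 fold changes of −0.12 (interval −0.64 to 0.40) and 0.02 (interval −0.27 to 0.30), the latter with 5 changes of sign.

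Per kilobase of exon, the members spanned from 2.69 (Fdps) to 494 (Stard4) normalized counts in controls. After Stard4 came Sc5d (382), Insig1 (222), Ebp (192), Hmgcs1 (161) and Srebf2 (130), and the range of Insig1 over the 8 libraries, 101 to 293, covered those of the last 3. The lowest were Fdps, Idi1 (7.79) and Acat2 (10.5). The genes of 1 linear pathway thus differed widely in level, and consecutive steps did so too, since Acat2 was at 10.5 and Hmgcs1, which follows it, at 161. How reads that match several genes were counted is not given in the sources used here.

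**Figure D4:**
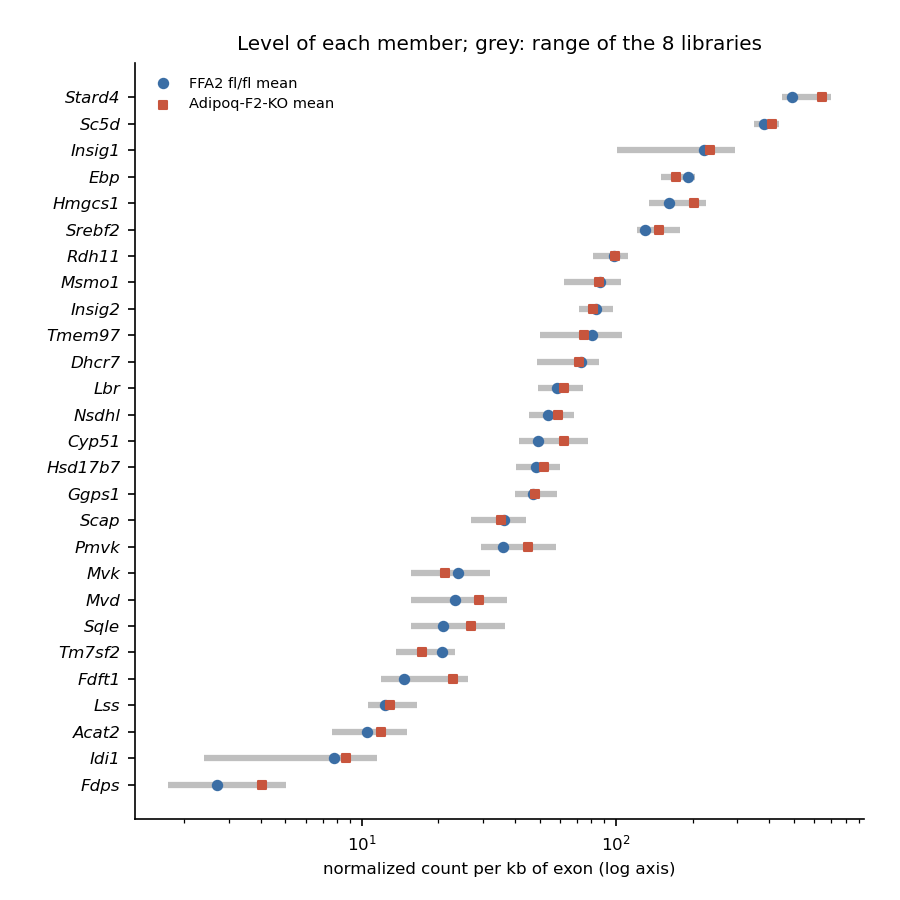
Mean normalized count per kilobase of exon (log axis) of each member in FFA2 fl/fl (circles) and Adipoq‐F2‐KO (squares), with the range of the 8 libraries in grey. Members run from Stard4 at the top to Fdps at the bottom, and the genotype means lie close together beside this span.

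Among libraries of the same genotype, the members varied together weakly. Over the 351 pairs of members, the median Pearson's r of deviations from the genotype means was 0.16 (8 libraries, log2 values), against −0.0019 over all pairs of tested genes. It was −0.03 without Adipoq‐F2‐KO 2 (−0.0011 over all genes), and 0.38 under epithelial scaling, where that of all genes was 0.24. Msmo1, Rdh11 and Tm7sf2 went together most closely (r of 0.96 to 0.98), as did Mvk and Tmem97 (0.97), while Ggps1 ran opposite to Mvk (−0.95) and Tmem97 (−0.95). Msmo1, Tm7sf2, Rdh11, Ebp and Scap were lower in all 3 shallow libraries than in all 5 deep ones (7.06% of all genes were), and no member was higher (6.86% of all genes were). Depth and the mitochondrial share move with these 5 genes and their part was not tested.

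In the 5 deep libraries alone (3 controls, 2 Adipoq‐F2‐KO), 7 members had an unadjusted p below 0.05, all higher (2.66% of all genes, and 5.7% in either direction), namely Hmgcs1, Pmvk, Mvd, Fdft1, Cyp51, Srebf2 and Stard4, and none passed the adjustment (Stard4, DESeq2 adjusted p = 0.233). The genotypes did not overlap at 11 members, 9 of them higher, against 24.1% of all genes. Without control 3 and Adipoq‐F2‐KO 2, 5 members had an unadjusted p below 0.05, of which Hmgcs1, Fdft1 and Stard4 were higher (5.38% of all genes) and Mvk (log2 fold change −0.60) and Tmem97 (−0.50) lower (5.14% of all genes), beside 10.5% of all genes in either direction. In these 6 libraries 10 members did not overlap, 6 of them higher (20.3% of all genes in either direction). This choice of libraries was made after the data were seen. The members below 0.05 thus differed with the libraries used, and Fdft1 and Stard4 were below 0.05 in every alternative.

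**Figure D5:**
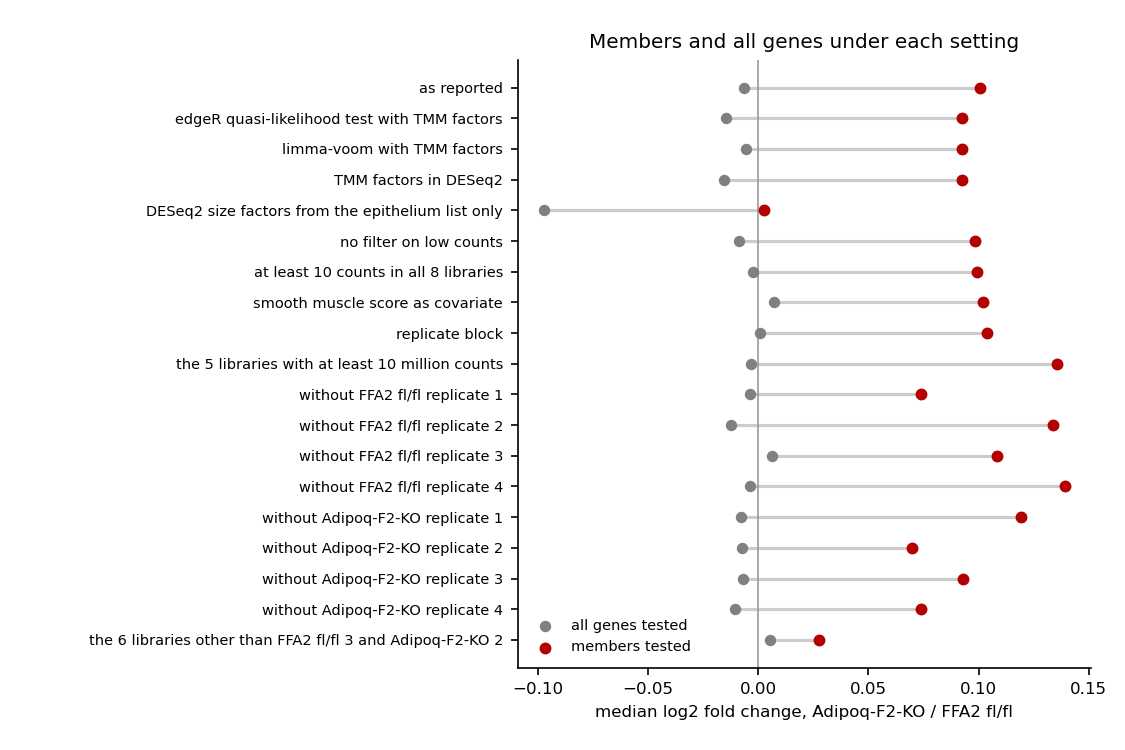
Median log2 fold change (Adipoq‐F2‐KO over FFA2 fl/fl) of the members tested and of all genes tested as reported and under 18 alternatives. The median of the members lies above that of all genes in each, by the least in the 6 libraries without control 3 and Adipoq‐F2‐KO 2 (0.03 against 0.0053).

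Other genes of the pathway were taken from lists. Of 14 genes that process SREBP or degrade pathway proteins at the endoplasmic reticulum, none had an unadjusted p below 0.05 with all 8 libraries in DESeq2 and 6 were above 0 (median −0.01). Without control 3 there was 1 such gene (8.29% of all genes were below 0.05) and in the 5 deep libraries 1 (5.7%). In the 6 libraries without control 3 and Adipoq‐F2‐KO 2 there were 2 (10.5% of all genes). Of these 2, 1 passed the adjustment, as did 216 of all 15022 genes tested there. Srebf1, the gene of the fatty acid regulator SREBP1, was at −0.41 (standard error 0.51). Of 14 genes of the isoprenoid side branches (dolichol, coenzyme Q and prenyl transfer), none had an unadjusted p below 0.05 as reported (0 to 2 over the alternatives, edgeR included) and 5 were above 0 (median −0.04). The 10 other sterol-responsive genes had a median of 0.10, which was 0.20 without control 1 and 0.04 without control 4, where 5 were above 0. With all 8 libraries 8 were above 0 and 1 had an unadjusted p below 0.05. This was Acly, which makes cytosolic acetyl-CoA, at 387.1, 428.0, 460.1 and 414.0 among controls and 463.4, 558.6, 512.5 and 515.1 among Adipoq‐F2‐KO. Its genotypes did not overlap and its log2 fold change was 0.29 (standard error 0.11, unadjusted p = 0.0112, DESeq2 adjusted p = 0.9998). The unadjusted p of Acly was not below 0.05 under epithelial scaling or without control 1 or Adipoq‐F2‐KO 2. Under epithelial scaling, where 30% of all genes were above 0, these 3 lists had 2 of 14, 0 of 14 and 5 of 10 above 0. There 2 genes of the isoprenoid branches had an unadjusted p below 0.05 (2.44% of all genes did).

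For comparison, of 12 fatty acid synthesis genes 9 were above 0 with a median of 0.09, close to the 0.10 of the members with all 8 libraries. The 2 medians were 0.14 and 0.07 without control 1, and 0.0060 and 0.03 without control 3 and Adipoq‐F2‐KO 2. None of the 12 had an unadjusted p below 0.05 as reported (0 to 2 over the alternatives). Of 12 genes of sterol efflux and the LXR receptors 8 were above 0 (median 0.02). There the efflux transporter gene Abcg1 was at 0.64 (unadjusted p = 0.0403) and Nr1h3, which encodes LXR alpha, at −0.28 (unadjusted p = 0.0234), and both failed the adjustment (DESeq2 adjusted p = 0.9998). Neither had an unadjusted p below 0.05 without control 4 or Adipoq‐F2‐KO 1, 3 or 4. In the 6 libraries without control 3 and Adipoq‐F2‐KO 2, 3 genes of this list were below 0.05 (10.5% of all genes). There 1 passed the adjustment, as did 216 of all genes. Under epithelial scaling 6 of 12 fatty acid genes and 4 of 12 efflux genes were above 0.

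Markers of other cell types were read beside the members, and with all 8 libraries none of them passed the adjustment in DESeq2. Of 22 proliferation genes, 20 had a log2 fold change above 0 (48.5% of all genes) and 5 an unadjusted p below 0.05, all higher (1.65% of all genes). The latter were 1 under epithelial scaling, 2 without control 1, 2 or 4 or Adipoq‐F2‐KO 1 or 4, and 3 without Adipoq‐F2‐KO 3. They were 4 with edgeR, in the 5 deep libraries or without Adipoq‐F2‐KO 2, and 6 with limma-voom. Without control 3 there were 5 (8.29% of all genes in either direction) and without Adipoq‐F2‐KO 2 as well 6 (10.5%). In each of these fits 1 passed the adjustment, as did 109 and 216 of all genes. Their summed normalized count was 2545 to 3028 among controls and 2972 to 3337 among Adipoq‐F2‐KO, which overlapped, while their mean log2 value, centred on the 8 libraries, did not (−0.15 to −0.04 and 0.02 to 0.16). Of the 7 B and plasma cell markers tested, 6 were above 0, with the highest median of the marker lists (0.87) and overlapping sums of 2288 to 4495 and 2663 to 3764. That median was 1.81 without control 2 and 0.47 without control 4 or Adipoq‐F2‐KO 2. Without control 2, 5 of 6 had an unadjusted p below 0.05 (3.05% of all genes) and 1 passed the adjustment (18 of all 15107 genes tested there). All 8 macrophage markers were above 0 (median 0.63, and 0.33 without control 4), with sums of 165 to 484 and 355 to 637. Of them 1 had an unadjusted p below 0.05, and 4 did without control 2 (3.05% of all genes). The fold changes of all 10 smooth muscle markers were below 0 (median −0.94), and this direction rested on control 3. Without that library 9 of 10 were above 0 with a median of 1.24, and over all 8 libraries the centred mean log2 value of the list averaged −0.24 among controls and 0.24 among Adipoq‐F2‐KO. The goblet and enteroendocrine lists had 6 of 7 markers below 0 each, and without control 3 the former had 3 of 7 below 0. The T cell list had 6 of 8 above 0, the stem cell list 4 of 9 and the Paneth cell list 3 of 6, counts that ran from 4 to 8, 2 to 6 and 0 to 4 on leaving out 1 library. The 15 villus enterocyte markers had a median of 0.01. The part of these cells in the values of the sterol genes was not tested, and with the smooth muscle score as a covariate 22 members were above 0 and Stard4 was at 0.40 (DESeq2 adjusted p = 0.141).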

How the data were processed

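Polyadenylated RNA of jejunal mucosa was sequenced from one end (75 bp, stranded kit) in 8 libraries, 4 per genotype, grouped by the sample titles. The authors trimmed reads with Trimmomatic, aligned them with STAR and counted them per gene with featureCounts, and deposited raw counts, neither normalized nor pooled. The submitters' notes name GRCm38 (mm10). Versions, the annotation release and the strand setting are not given in the sources used here. Symbols and exon lengths came from GENCODE M21, and 4907 identifiers had no model there.

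Genes reaching 10 counts in 4 or more libraries were tested with DESeq2 1.42.0 (R 4.3.3), the study's tool, with genotype as the only term, two-sided Wald tests and Benjamini-Hochberg adjustment over all genes. Standard errors and intervals (95%) are those of this fit and cover the spread between libraries. The reads carried no molecular identifiers, and p-values measure the spread between these mice. The alternatives used edgeR 4.0.16 (quasi-likelihood), limma 3.58.1, other scalings, filters, a covariate, a replicate block and fewer libraries. Correlations used log2(normalized count + 1). The fits were tested on simulated counts with known changes, drawn once with spreads estimated by edgeR. There DESeq2 made more false calls than its adjusted threshold allows and edgeR and limma did not. Libraries of a genotype differed by a chi-square of 5.04 to 56.6 per gene, so none was a duplicate.

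The members and lists were chosen with earlier results of these data known. All members are named, those at an unadjusted p below 0.05 or without overlap are given in every library, and of the other pathway lists up to 3 genes at an unadjusted p below 0.05 are named. Srebf1, and Ctsb, Akap9 and Vps51, which overlap members, lie outside this rule and were chosen after their values were seen. Promoters were searched as letters only.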

Additional observations from a re-analysis of the deposited data

Results flagged for a closer look

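Within each genotype, the highest and lowest library of each of the 27 members was compared with its neighbour by Dixon's ratio (gap over range), and 3 of 54 groups of 4 libraries were above the 95% critical value for 4 libraries, where chance gives about 1 in 20. Sqle was far higher in Adipoq‐F2‐KO 2 than in the other 3 Adipoq‐F2‐KO libraries (ratio 0.901, 203.4 against 127.9 to 135.4). Insig1 was lower in Adipoq‐F2‐KO 1 than in the others (ratio 0.845, 513.1 against 778.3 to 826.9). Stard4 was lower in control 2 than in the other controls (ratio 0.866, 2505.2 against 2824.0 to 2873.3), and without this library its log2 fold change was 0.35 (DESeq2 adjusted p = 0.331).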

How the results depend on the processing

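Of the 27 members, 18 kept the direction of their log2 fold change in every one of the 18 alternatives that tested them and 9 did not. As reported, these 9 lay between −0.05 and 0.11. No member passed the adjustment (0) with edgeR, limma-voom, epithelial scaling, no filter on low counts, the smooth muscle covariate or the 5 deep libraries, and leaving out 1 library gave 0 to 1. Members at an unadjusted p below 0.05 numbered 2 under epithelial scaling (2.44% of all genes in either direction) and 2 to 4 on leaving out 1 library (2 without Adipoq‐F2‐KO 2, 3.51% of all genes, and 4 without control 3, 8.29%), 6 with limma-voom (2.16% of all genes as higher), 7 in the 5 deep libraries (5.7% of all genes in either direction) and 5 in the 6 libraries without control 3 and Adipoq‐F2‐KO 2 (10.5% of all genes in either direction). Members without overlap numbered 1 under epithelial scaling (1.76% of all genes), 11 in the deep libraries (24.1% of all genes), 10 in those 6 (20.3% of all genes) and 3 to 6 on leaving out 1 library, with the 6 without control 3 (9.66% of all genes). The median correlation between members was 0.38 under epithelial scaling (0.24 over all genes), −0.0066 in the 6 libraries and −0.029 to 0.26 on leaving out 1 library. Directions turned under epithelial scaling for Idi1 (−0.012), Ggps1 (−0.052), Lss (−0.0060), Insig1 (−0.036) and Rdh11 (−0.085), where the median of all genes also moved from −0.0067 to −0.097, with the smooth muscle covariate for Msmo1 (0.034), Dhcr7 (0.016) and Scap (0.0031), with limma-voom for Insig2 (0.013), in the deep libraries for Msmo1 (0.052), Insig1 (−0.32) and Insig2 (0.18), and in the 6 libraries for Idi1 (−0.14), Lss (−0.066), Insig1 (−0.21) and Rdh11 (−0.12). On leaving out 1 library the log2 fold change ran from −0.11 to 0.30 for Idi1, −0.027 to 0.14 for Ggps1, −0.069 to 0.15 for Lss, −0.13 to 0.062 for Msmo1, −0.16 to 0.074 for Dhcr7, −0.15 to 0.053 for Scap, −0.17 to 0.23 for Insig1, −0.11 to 0.057 for Insig2 and −0.050 to 0.074 for Rdh11. The causes were not tested. Idi1 and Fdps could not be tested with at least 10 counts in all 8 libraries. With the replicate number as a block, 3 members had an unadjusted p below 0.05 (2.71% of all genes), 19 were above 0 (50.3% of all genes), 1 passed (Stard4, DESeq2 adjusted p = 0.0103) and 11 genes passed in all against 6. Whether same-numbered mice shared a cage or litter is not given in the sources used here. The deviations of same-numbered libraries correlated at 0.66, 0.32, 0.09 and −0.53, which can neither show nor exclude a pairing. Controls 1 and 2 correlated best with the Adipoq‐F2‐KO library of their own number, and controls 3 and 4 with Adipoq‐F2‐KO 4 and 1. For 13 of 27 members the 95% interval lay within 0.5 of 0 on the log2 scale, and the intervals of the others reach past 0.5, so that larger differences are not excluded there.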
